A study of Mus musculus with 6 samples.

Results

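The 9 genes described here encode transcription factors that pattern the forebrain and other parts of the nervous system. They are the POU-domain genes Pou3f1, Pou3f2 and Pou3f3, the homeobox genes Otx1 and Otx2, the LIM-homeobox gene Lhx2, the orphan nuclear receptor gene Nr2e1, and the Distal-less homeobox genes Dlx1 and Dlx2. They were chosen by gene symbol, and all 9 were found among the 20325 genes of the files. RNA had been sequenced from cells on the way to induced pluripotency, sorted into Nanog+E-cadherin+ cells (n = 3 libraries) and Nanog+E-cadherin- cells (n = 3 libraries). Both populations came from neural stem cells of mice of mixed 129/Black 6 strain at postnatal day 4. All carried 2 copies of a doxycycline-inducible Oct4, Sox2, c-Myc and Klf4 cassette (Stemcca) at ColA1 and 1 copy of the reverse tetracycline transactivator (rtta) at Rosa26. Both populations received doxycycline until day 7 and were fixed and stained before sorting, so neither is an uninduced control, and the comparison asks how Nanog-positive cells with and without E-cadherin differ. Whether the replicates of a population were grown apart, or from different mice, is not stated, and the p-values below therefore cover no more than the variation among these 6 libraries.

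Homeobox and POU genes are used in overlapping sets along the axis of the early brain, where each region of the neural tube is marked by its own combination. Otx1, Otx2, Lhx2 and Nr2e1 are known for the forebrain and its stem cells, Dlx1 and Dlx2 for the ventral forebrain and its inhibitory neurons, and the Pou3f genes for neural progenitors and migrating neurons. Pou3f1 and Otx2 are also known from the epiblast, the pluripotent tissue of the early embryo, so they are expressed in a pluripotent as well as a neural setting.

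Total expected counts ran from 12345327 to 20934553 in Nanog+E-cadherin+ libraries and from 8851110 to 39630916 in Nanog+E-cadherin- libraries. Cdh1, which encodes E-cadherin and checks the sort, stood at 53.4 ± 20.2 TPM in Nanog+E-cadherin+ cells against 7.57 ± 2.25 TPM in Nanog+E-cadherin- cells (SD, n = 3 each), with no overlap between libraries. The neural stem markers Nes and Vim were abundant in all 6 libraries. The 12 markers of that list summed to between 2144 and 4995 CPM in Nanog+E-cadherin+ libraries and between 2740 and 5095 CPM in Nanog+E-cadherin- libraries. Vim was the largest part of these sums. On the CPM scale with TMM scaling, which the sums leave out, Vim stood at 1192 to 3364 CPM. Other markers of the list were low in some libraries. Ptprz1 stood at 5.18 CPM in Nanog+E-cadherin+ and 4.64 CPM in Nanog+E-cadherin- replicate 1, and Hes5 at 2.90 CPM in Nanog+E-cadherin+ replicate 3. Chemosensory receptor genes (Olfr, Vmn1r and Vmn2r), which these cells should not express, summed to 31.9, 155 and 112 CPM in Nanog+E-cadherin+ replicates 1 to 3. They summed to 36.1, 1886 and 1215 CPM in Nanog+E-cadherin- replicates 1 to 3, so 2 libraries stood apart in this sum. With these 2 libraries left out, Nanog+E-cadherin- replicate 1 was alone in its population and was assumed to vary like the others; the log2 fold change with group only was then -0.75 ± 0.43 for Otx2, -0.17 ± 0.78 for Otx1, 0.20 ± 0.84 for Pou3f2, 1.53 ± 1.02 for Pou3f3, 1.85 ± 1.05 for Lhx2, 3.07 ± 1.45 for Nr2e1 and -0.70 ± 0.42 for Pou3f1 (SE), with no gene called and 213 genes at an unadjusted p under 0.05 in edgeR's test. Leaving them out also takes replicate numbers 2 and 3 from 1 population only.

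Levels per transcript length (TPM, the share of transcripts scaled to a fixed total) differed widely among the 9 genes. In Nanog+E-cadherin+ cells they ran from 40.3 ± 18.0 TPM for Otx2 and 37.5 ± 3.08 TPM for Pou3f1, through 28.8 ± 22.7 for Pou3f3, 14.1 ± 10.6 for Lhx2, 7.64 ± 6.03 for Pou3f2, 3.497 ± 2.86 for Nr2e1 and 3.29 ± 2.28 for Otx1, to 0.480 ± 0.303 for Dlx1 and 0.300 ± 0.281 for Dlx2 (SD, n = 3). In Nanog+E-cadherin- cells they ran from 81.9 ± 48.7 TPM for Otx2, through 40.3 ± 14.6 for Pou3f1, 28.6 ± 21.2 for Pou3f3, 11.9 ± 9.19 for Lhx2, 10.2 ± 5.59 for Pou3f2, 5.91 ± 3.83 for Otx1, 5.44 ± 4.47 for Nr2e1 and 4.28 ± 3.97 for Dlx1, to 0.427 ± 0.301 for Dlx2 (SD, n = 3). The SDs of many neighbours in these orders overlap, so their order is not firm. Dlx2 ranked last of the 9 in every library. The 3 genes of highest level in every library were Pou3f1, Pou3f3 and Otx2.

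**Figure D1:**
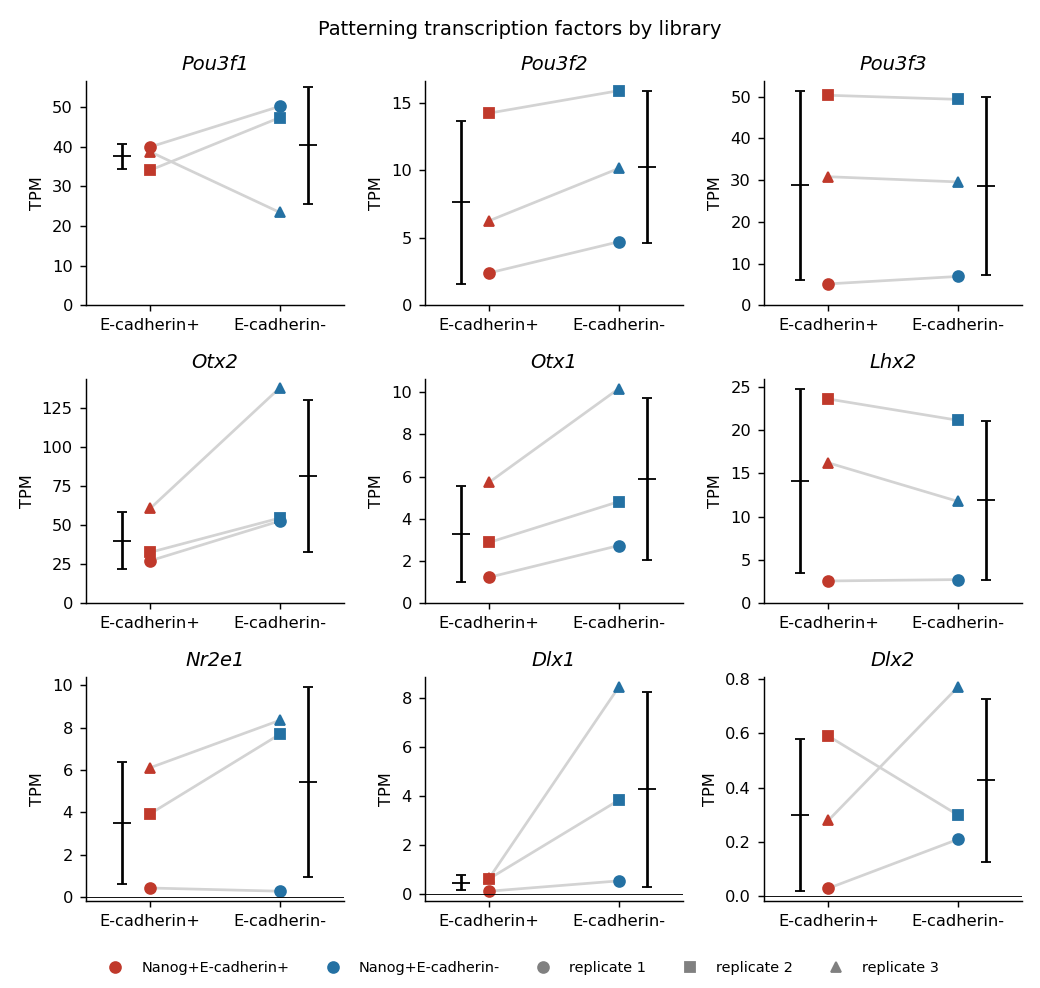
Level of each gene (TPM, linear axis) in Nanog+E-cadherin+ libraries (red) and Nanog+E-cadherin- libraries (blue); symbols mark the replicate number, grey lines join libraries of equal number, and black bars are mean ± SD (n = 3). Otx2, Otx1, Pou3f2 and Dlx1 are lower in Nanog+E-cadherin+ cells on all 3 lines, while Pou3f3 and Lhx2 differ mainly between replicate numbers.

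Over all genes, the quasi-likelihood test of edgeR, fitted on group alone, called 0 of 13460 genes at an adjusted p under 0.05 (0%), and with the replicate number as a block it called 41 (0.305%), of which 12 fell (0.0892%). At an adjusted p under 0.05 DESeq2's group-only Wald test called 21 genes. At an unadjusted p under 0.05 the group-only fit gave 359 genes in edgeR, 256 in limma-voom and 490 in DESeq2's Wald test. About 673 genes would pass that unadjusted cutoff by chance if no gene differed, so the group-only edgeR fit was conservative here. It did not call Cdh1 either, the gene of the sort, at an adjusted p of 0.0608. A gene not called in that fit is therefore not shown to be equal between the populations. Of the 9 factors, 8 passed the filter on low counts and Dlx2 did not. None of the 8 was called in either fit. With group only, 1 of the 8, Dlx1, had an unadjusted p under 0.05, on the lower side, against 2.67% of all genes and 1.58% on that side. With the block 2 of the 8, Otx2 and Dlx1, did, both lower in Nanog+E-cadherin+ cells, against 5.19% of all genes on that side and 10.7% in either direction. Within equal replicate numbers, Otx2, Otx1, Pou3f2 and Dlx1 were lower in the Nanog+E-cadherin+ library of all 3 pairs, 4 of the 8 against 17.3% of all genes. Lhx2 was higher in all 3 pairs by its CPM, against 18.9% of all genes, although its ratio was near 1 in the pair of replicate 1. The median log2 fold change of the 8 genes was -0.44 with group only and -0.36 with the block, against -0.01 and 0.02 over all genes. These shares and medians describe the genes and are not tests of the set.

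Among the Otx genes, Otx2, a head organiser gene of the forebrain and midbrain, had the most even difference between the populations. Otx2 stood at 27.4, 32.8 and 60.9 TPM in Nanog+E-cadherin+ replicates 1 to 3, against 52.8, 54.7 and 138 TPM in Nanog+E-cadherin- replicates 1 to 3. The groups overlapped through Nanog+E-cadherin+ replicate 3, but each Nanog+E-cadherin+ library was lower than the Nanog+E-cadherin- library of its own number. The log2 CPM ratios of the 3 pairs were -0.85, -0.75 and -0.97, that is 1.80-, 1.68- and 1.96-fold lower. The log2 fold change was -0.88 ± 0.39 (SE) with group only, with an adjusted p of 0.9999 in edgeR's test, and -0.86 ± 0.17 (SE) with the block, with an adjusted p of 0.126. That blocked p of 0.000882 ranked 94 among the 13460 genes. Blocked fits by DESeq2's Wald test and by limma-voom placed Otx2 under the threshold, with adjusted p-values of 0.00707 and 0.0164, so the call depends on the tool. Otx2 shares 154 exonic bases with the opposite-strand gene Otx2os1 in the GENCODE M21 annotation. Because fewer Otx2-expressing cells and less Otx2 RNA per cell give the same bulk value, they cannot be told apart here, and the same holds for every gene below.

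Otx1, the paralogue known for the cortex, was far less abundant and was placed in the same direction. Otx1 stood at 1.24, 2.89 and 5.74 TPM in Nanog+E-cadherin+ replicates 1 to 3, against 2.74, 4.82 and 10.2 TPM in Nanog+E-cadherin- replicates 1 to 3. Each value was lower in Nanog+E-cadherin+ cells within its pair, and the groups overlapped. The log2 fold change was -0.73 ± 0.62 (SE) with group only and -0.80 ± 0.43 (SE) with the block (adjusted p = 0.9999 and 0.548 in edgeR's test). Otx2 made up between 91.4% and 95.7% of the summed Otx TPM in Nanog+E-cadherin+ libraries and between 91.9% and 95.1% in Nanog+E-cadherin- libraries, and these ranges overlapped.

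Dlx1, a homeobox gene of ventral forebrain progenitors and of the inhibitory neurons they give rise to, had the largest fitted fold difference of the 9 genes. Dlx1 stood at 0.13, 0.64 and 0.67 TPM in Nanog+E-cadherin+ replicates 1 to 3, on 5, 11 and 19 expected counts. In Nanog+E-cadherin- replicates 1 to 3 it stood at 0.55, 3.84 and 8.45 TPM, on 39, 58 and 99 expected counts. Nanog+E-cadherin- replicate 3 was the highest library, followed by replicate 2 of the same population. On the CPM scale the groups did not overlap, the single case among the 8 genes, against 3.25% of all genes on that side and 6.99% in either direction, and on the TPM scale Nanog+E-cadherin- replicate 1 lay below Nanog+E-cadherin+ replicates 2 and 3. With group only the fitted log2 value was -2.98 ± 1.01 (SE, adjusted p = 0.9999 in edgeR's test), and with the block it was -2.71 ± 0.78 (SE, adjusted p = 0.271). DESeq2's Wald test with the block gave an adjusted p of 0.0340 for Dlx1, and limma-voom with the block did not call it.

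The high Dlx1 values coincided with the libraries of high chemosensory sums. In Nanog+E-cadherin- replicates 2 and 3, 35 and 9 of 1447 chemosensory genes (2.42% and 0.622%) had a TPM as high as that of Dlx1. In Nanog+E-cadherin+ replicates 2 and 3 the numbers were 28 and 2 (1.94% and 0.138%). In the pair of replicate 1 the chemosensory sum was 31.9 CPM in the Nanog+E-cadherin+ and 36.1 CPM in the Nanog+E-cadherin- library. Dlx1 was lower in the Nanog+E-cadherin+ library of that pair, at a ratio of 0.251 on 5 against 39 counts. The exact 95% counting interval of this ratio ran from 0.0772 to 0.637. That interval covers counting error only, for 1 library of each population. With Nanog+E-cadherin- replicates 2 and 3 left out, the group-only log2 fold change was -0.68 ± 1.01 (SE) with 1 library in that group, assumed to vary like the others. The part of whatever raised these sums in the Dlx1 difference was not tested. Dlx1 also shares 335 exonic bases with the opposite-strand gene Dlx1as in the GENCODE M21 annotation, and since it is not given whether counting used strand, reads of both cannot be told apart.

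Dlx2, which lies beside Dlx1 and acts with it in the ventral forebrain, was near the limit of detection. Dlx2 stood at 0.03, 0.59 and 0.28 TPM in Nanog+E-cadherin+ replicates 1 to 3, on 1, 9 and 7 counts. It stood at 0.21, 0.30 and 0.77 TPM in Nanog+E-cadherin- replicates 1 to 3, on 13, 4 and 8 counts. The groups overlapped, and the pairs did not share a direction, with log2 CPM ratios of -2.73, 0.98 and -1.26. In the fit without a filter on low counts Dlx2 had a log2 fold change of -0.49 ± 1.56 (SE, adjusted p = 0.998 in edgeR's test), so a difference was not detectable at this depth. In Nanog+E-cadherin- replicates 2 and 3, Dlx1 made up 92.8% and 91.6% of the summed TPM of Dlx1 and Dlx2, with no other Dlx gene in the sum, against 72.4% in Nanog+E-cadherin- replicate 1. In Nanog+E-cadherin+ replicates 1 to 3 its share was 81.2%, 52.0% and 70.5%, on the low counts above.

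**Figure D2:**
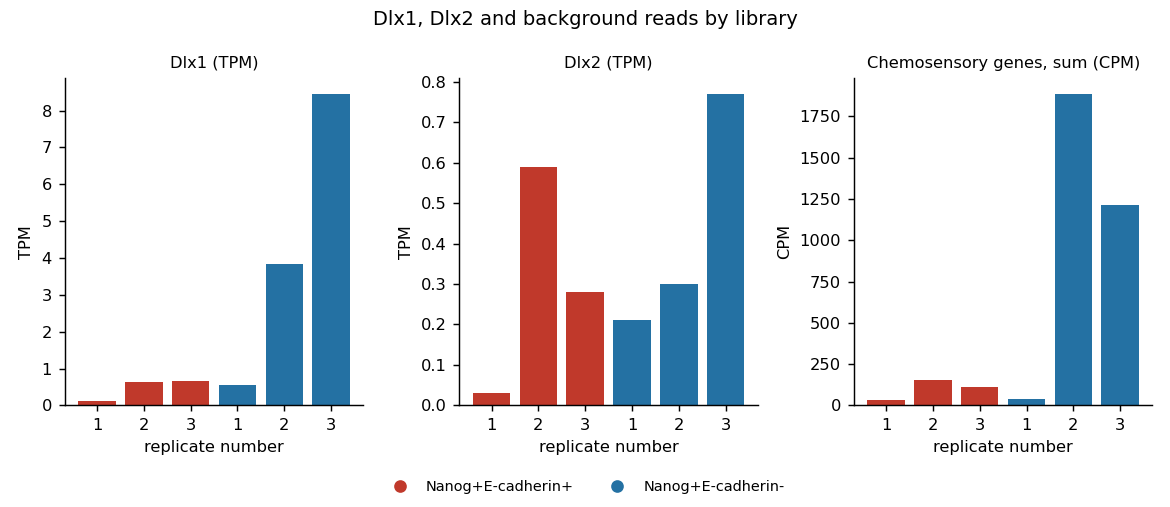
Dlx1 and Dlx2 (TPM) and the summed CPM of 1447 chemosensory receptor genes, per library, with bars from 0; red is Nanog+E-cadherin+, blue is Nanog+E-cadherin-, and the number under each bar is the replicate. Dlx1 and the chemosensory sum are both highest in Nanog+E-cadherin- replicates 2 and 3, while Dlx2 is below 0.8 TPM in all libraries.

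Of the POU genes, Pou3f1 (Oct6), known from the epiblast and from myelinating glia, did not separate the populations. Pou3f1 stood at 39.9, 34.0 and 38.7 TPM in Nanog+E-cadherin+ replicates 1 to 3, against 50.1, 47.3 and 23.4 TPM in Nanog+E-cadherin- replicates 1 to 3. The Nanog+E-cadherin+ values lay inside the range of the Nanog+E-cadherin- values. The log2 fold change was -0.05 ± 0.46 (SE) with group only and 0.06 ± 0.27 (SE) with the block (adjusted p = 0.9999 and 0.949 in edgeR's test), so its sign depends on the fit. Pou3f1 shares 330 exonic bases with the opposite-strand gene Gm2164 in the GENCODE M21 annotation. The pairs pointed both ways, at log2 CPM ratios of -0.23, -0.48 and 0.93.

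Pou3f2 (Brn2), a factor of neural progenitors that is also used to convert fibroblasts into neurons, was lower in Nanog+E-cadherin+ cells within each pair, without passing the test. Pou3f2 stood at 2.41, 14.2 and 6.27 TPM in Nanog+E-cadherin+ replicates 1 to 3, against 4.71, 15.9 and 10.1 TPM in Nanog+E-cadherin- replicates 1 to 3. Both populations were highest in replicate 2 and lowest in replicate 1. Its fitted log2 difference was -0.39 ± 0.64 (SE) with group only and -0.50 ± 0.46 (SE) with the block (adjusted p = 0.9999 and 0.725 in edgeR's test).

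Pou3f3 (Brn1), which is expressed with Pou3f2 in the developing cortex, and Lhx2, a selector gene of the cerebral cortex and eye, had nearly the same profile over the libraries. Pou3f3 stood at 5.17, 50.4 and 30.8 TPM in Nanog+E-cadherin+ replicates 1 to 3, against 6.95, 49.4 and 29.6 TPM in Nanog+E-cadherin- replicates 1 to 3. Lhx2 stood at 2.59, 23.6 and 16.2 TPM in Nanog+E-cadherin+ replicates 1 to 3, against 2.75, 21.1 and 11.8 TPM in Nanog+E-cadherin- replicates 1 to 3. In both populations the libraries of replicate 1 were low and those of replicate 2 high, and the populations overlapped almost fully. The log2 fold change with the block was -0.01 ± 0.20 (SE) for Pou3f3 and 0.28 ± 0.28 (SE) for Lhx2 (adjusted p = 0.990 and 0.754 in edgeR's test). With group only these were 0.07 ± 0.71 and 0.32 ± 0.75 (SE). The pairs of Pou3f3 pointed both ways, at log2 CPM ratios of -0.33, 0.02 and 0.27, and those of Lhx2 were 0.01, 0.15 and 0.67. Of 10465 genes compared, Lhx2 was the one nearest in pattern to Pou3f3 and Pou3f3 the one nearest to Lhx2, with a root mean square difference of 0.16 between their centred log2 CPM values over the 6 libraries, where the spread of each gene itself was 1.01 and 1.02. The libraries of 1 replicate number share that number, so this likeness rests mostly on 3 levels. By the same measure the nearest genes were Lhpp to Pou3f1 (0.07), Dpysl3 to Pou3f2 (0.05), Rsph9 to Otx2 (0.23), Rgs11 to Otx1 (0.14), Acta2 to Nr2e1 (0.25) and Adrbk2 to Dlx1 (0.42).

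The 250 bases before the annotated start of Pou3f3 and Lhx2 are shown because these genes had the most similar profiles, and that of Otx2 because it had the most even difference between populations. RefSeq promoters (GRCm38.p6) were matched for 7 of the 9 genes. The bases are those of Pou3f3 at chr1:42695518-42695767 on the plus strand, Lhx2 at chr2:38339031-38339280 on the plus strand, and Otx2 at chr14:48667645-48667894 on the minus strand. For Lhx2 and Otx2 the most upstream of 2 and of 4 listed starts was taken, and none of the 3 windows overlaps an exon in GENCODE M21. Capitals mark matches to 4 motifs searched on both strands: TAATTA (a homeodomain core), TAATCC (a core bound by Otx proteins), ATGCAAAT (the octamer of POU proteins) and AAGTCA (a core bound by the Nr2e1 protein).
Pou3f3: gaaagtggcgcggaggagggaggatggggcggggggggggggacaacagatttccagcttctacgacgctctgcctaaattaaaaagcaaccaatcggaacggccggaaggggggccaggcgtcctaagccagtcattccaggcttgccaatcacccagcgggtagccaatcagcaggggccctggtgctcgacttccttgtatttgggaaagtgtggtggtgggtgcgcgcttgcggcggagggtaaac
Lhx2: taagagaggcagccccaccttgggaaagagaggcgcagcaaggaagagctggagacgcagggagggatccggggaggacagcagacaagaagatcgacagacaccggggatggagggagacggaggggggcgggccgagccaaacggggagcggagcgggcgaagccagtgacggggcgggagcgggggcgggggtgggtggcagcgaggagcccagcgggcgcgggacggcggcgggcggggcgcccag
Otx2: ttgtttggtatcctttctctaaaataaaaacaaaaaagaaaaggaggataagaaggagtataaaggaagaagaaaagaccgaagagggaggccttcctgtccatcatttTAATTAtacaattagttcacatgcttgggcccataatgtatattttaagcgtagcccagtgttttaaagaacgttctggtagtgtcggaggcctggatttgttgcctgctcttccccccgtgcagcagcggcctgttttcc
The printed Otx2 window held 1 match to TAATTA, starting 141 bases before the start, and the other 2 printed windows held none of the 4 motifs. Among the Otx2 starts not printed, the window at chr14:48665110-48665359, which lies in Otx2 exons, held 3 matches to TAATTA and 1 to TAATCC. The windows of the remaining Otx2 starts and of the Lhx2 start not printed held none. Of 32851 promoter windows of the same length, 4.84% held TAATTA, 6.25% TAATCC, 1.60% ATGCAAAT and 13.1% AAGTCA. The printed windows were 60.8% GC for Pou3f3, 72.8% for Lhx2 and 42.0% for Otx2, against a median of 52.4%. A match or its absence is only a description of the letters.

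Nr2e1 (Tlx), an orphan nuclear receptor known for maintaining adult neural stem cells, was close to 0 in replicate 1 of both populations. Nr2e1 stood at 0.44, 3.94 and 6.11 TPM in Nanog+E-cadherin+ replicates 1 to 3, against 0.29, 7.68 and 8.34 TPM in Nanog+E-cadherin- replicates 1 to 3. The replicate 1 libraries had 20 counts in the Nanog+E-cadherin+ and 24 in the Nanog+E-cadherin- population, and each of the other libraries had at least 79 counts. Its fitted log2 difference was -0.49 ± 1.10 (SE) with group only and -0.22 ± 0.49 (SE) with the block (adjusted p = 0.9999 and 0.900 in edgeR's test). The pairs pointed both ways, at log2 CPM ratios of 0.71, -0.97 and -0.24.

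**Figure D3:**
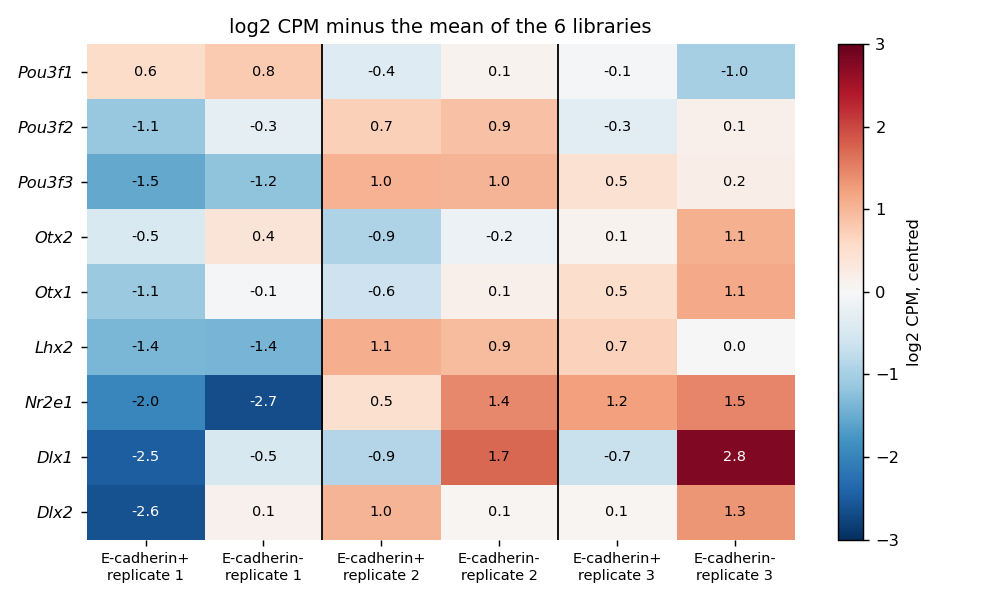
Each gene's log2 CPM minus its mean over the 6 libraries, with libraries of equal replicate number side by side and the Nanog+E-cadherin+ library on the left of each pair; red is above and blue below the gene's mean. Pou3f3, Lhx2 and Nr2e1 are low in both libraries of replicate 1. Dlx1 differs within each pair and is also lowest in replicate 1 of each population.

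By mean TPM, each gene described here differed more between its highest and lowest replicate number than between the sorted populations. This held for Otx2 and Dlx1 too. Otx2 averaged 40.1, 43.7 and 99.5 TPM in replicates 1 to 3, against 40.3 TPM in Nanog+E-cadherin+ and 81.9 TPM in Nanog+E-cadherin- cells. Dlx1 averaged 0.34, 2.24 and 4.56 TPM in replicates 1 to 3, against 0.48 TPM in Nanog+E-cadherin+ and 4.28 TPM in Nanog+E-cadherin- cells. Averaged over both populations, Nr2e1 was 15.9-fold and 19.8-fold higher in replicates 2 and 3 than in replicate 1, Lhx2 8.37-fold and 5.24-fold, and Pou3f3 8.23-fold and 4.99-fold, on the TPM scale. Otx2 had a different order, at 1.09-fold and 2.48-fold, being highest in replicate 3. A test of the replicate terms in the blocked edgeR fit, chosen after these values were seen, called 4 of the 8 genes, with adjusted p-values of 0.00142 for Pou3f3, 0.00608 for Lhx2, 0.0110 for Nr2e1 and 0.0142 for Otx2, against 22.2% of all genes. It did not call Pou3f1 (0.0632), Otx1 (0.145), Dlx1 (0.173) or Pou3f2 (0.177). What a replicate number stands for is not stated in the labels. Other marker sums moved with the replicate number as well: the 6 astrocyte genes summed to 218 CPM in the Nanog+E-cadherin+ and 144 CPM in the Nanog+E-cadherin- library of replicate 1, and to between 664 and 1321 CPM in the others. The 6 fibroblast genes summed to 315 CPM in the Nanog+E-cadherin+ and 407 CPM in the Nanog+E-cadherin- library of replicate 1 and to between 845 and 3210 CPM in the others. For the 14 neuron genes the order was turned, at 954 CPM in the Nanog+E-cadherin+ and 1363 CPM in the Nanog+E-cadherin- library of replicate 1 and between 293 and 822 CPM in the others. Their part in the differences between replicate numbers was not tested.

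The shares of the 3 Pou3f genes described here, without Pou3f4, also differed between replicate numbers. Pou3f1 made up 84.0%, 34.5% and 51.0% of their summed TPM in Nanog+E-cadherin+ replicates 1 to 3, against 81.1%, 42.0% and 37.1% in Nanog+E-cadherin- replicates 1 to 3. It was the highest of the 3 in both replicate 1 libraries, and Pou3f3 was ahead of it in both replicate 2 libraries and in Nanog+E-cadherin- replicate 3. Summed over all 9 genes, the level was 79.3, 163 and 166 TPM in Nanog+E-cadherin+ replicates 1 to 3, against 121, 205 and 241 TPM in Nanog+E-cadherin- replicates 1 to 3.

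**Figure D4:**
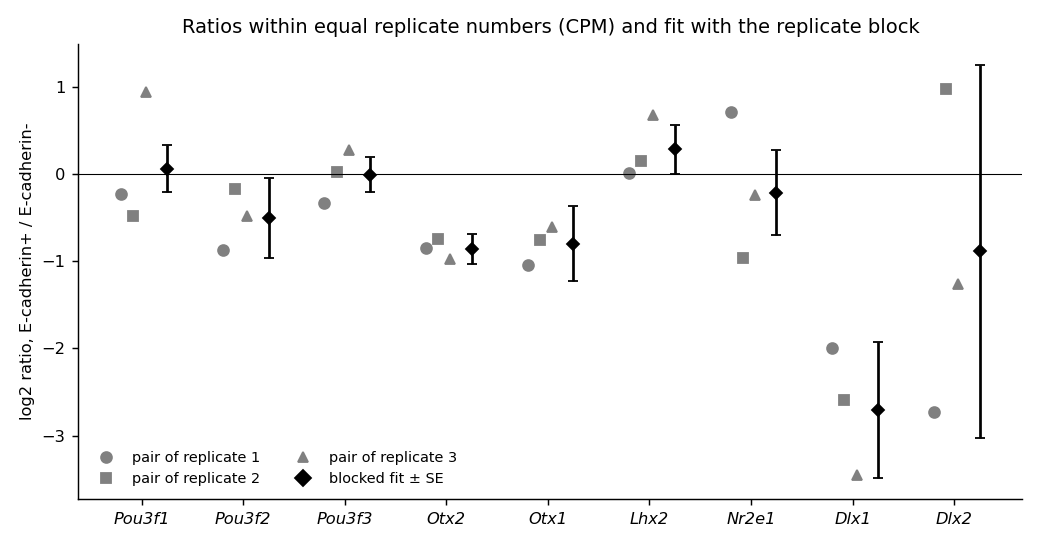
Log2 ratio of CPM, Nanog+E-cadherin+ over Nanog+E-cadherin-, within each replicate number (grey symbols) and the log2 fold change of the edgeR fit with the replicate block (black diamond, ± SE); Dlx2 is from the fit without a filter. The 3 pairs of Otx2 lie between -0.97 and -0.75, those of Dlx1 between -3.45 and -1.99, and those of Pou3f1, Pou3f3, Nr2e1 and Dlx2 on both sides of 0.

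Other patterning factors were examined in 4 lists holding 75 genes in all, of which 49 passed the filter. None of the 49 was called with or without the block. By fitted value 13 were higher and 36 lower in Nanog+E-cadherin+ cells with group only, at a median log2 fold change of -0.37, and 16 were higher and 33 lower with the block, at a median of -0.27. Over all genes tested 6522 were fitted higher and 6938 lower with group only. With the block 7 of the 49 had an unadjusted p under 0.05, all of them lower, against 5.19% of all genes on that side. Libraries did not overlap for 4 lower and 2 higher genes of the 49, against 3.25% and 3.74% of all genes. The lists were described by these counts and not tested as sets.

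In the ventral forebrain list, the setting in which Dlx1 and Dlx2 act, 9 of 14 genes were tested, 3 fitted higher and 6 lower, with a blocked median of -0.55. Sp9, a zinc finger factor of the ganglionic eminences, stood at 2.17, 2.65 and 2.36 TPM in Nanog+E-cadherin+ replicates 1 to 3, against 4.45, 13.6 and 6.83 TPM in Nanog+E-cadherin- replicates 1 to 3. The populations did not overlap for Sp9, and its blocked log2 fold change was -1.53 ± 0.45 (SE, adjusted p = 0.275 in edgeR's test). Gsx2, a homeobox gene that acts ahead of the Dlx genes in ventral progenitors, had one of -2.05 ± 0.67 and Sall3, a spalt zinc finger factor, one of -0.87 ± 0.24 (SE, blocked, adjusted p = 0.331 and 0.263 in edgeR's test). Like Dlx1, both were highest in Nanog+E-cadherin- replicates 2 and 3, the libraries of high chemosensory sums. Gsx2 stood there at 11.4 and 5.14 CPM, against 0.816 CPM in Nanog+E-cadherin- replicate 1. Sall3 stood there at 48.1 and 41.9 CPM, against 19.5 CPM in Nanog+E-cadherin- replicate 1, which was inside the Nanog+E-cadherin+ range. Lhx6, a LIM-homeobox gene of cortical interneurons, was placed the other way at 2.49 ± 1.25 (SE, blocked, adjusted p = 0.522). The Dlx paralogues Dlx5 and Dlx6 were below the filter.

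In the dorsal and general forebrain list 11 of 19 genes were tested, 2 fitted higher and 9 lower, with a blocked median of -0.25. Pax6, a paired-box factor of cortical and eye progenitors, had a blocked log2 fold change of -0.38 ± 0.30, Bcl11b of -0.43 ± 0.45 and Barhl2 of -0.81 ± 0.60 (SE). The log2 CPM ratios of pairs 1 to 3 were 0.09, -0.02 and -1.21 for Pax6 and -1.10, -1.12 and 1.11 for Bcl11b. Those of Barhl2 were -1.32, -0.24 and -0.86. Pax6 was highest in Nanog+E-cadherin- replicate 3, a library of high chemosensory sum, at 43.8 CPM. Sp8 was listed at 0 in 2 Nanog+E-cadherin- libraries and stood at 0.29, 0.32 and 0.67 TPM in Nanog+E-cadherin+ replicates 1 to 3. In the midbrain, hindbrain and spinal cord list 14 of 27 were tested. Of these 6 were fitted higher and 8 lower with the block and 3 higher and 11 lower with group only, with medians of -0.41 and -0.53. Irx2, an Iroquois homeobox gene, averaged 58.0 ± 7.22 CPM in Nanog+E-cadherin+ cells and 87.7 ± 13.6 CPM in Nanog+E-cadherin- cells (SD, n = 3 each), and Pax3, of the dorsal neural tube, averaged 1.37 ± 0.389 CPM in Nanog+E-cadherin+ cells and 4.64 ± 0.924 CPM in Nanog+E-cadherin- cells. Neither was called (blocked adjusted p = 0.266 and 0.426 in edgeR's test), and Irx1 had a blocked log2 fold change of -0.51 ± 0.32 (SE). Of the 15 broad neural homeobox, Zic and cofactor genes, all tested, 5 were fitted higher and 10 lower with a blocked median of -0.20, and the homeobox cofactor Pbx3 had a log2 fold change of 0.28 ± 0.20 (SE).

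**Figure D5:**
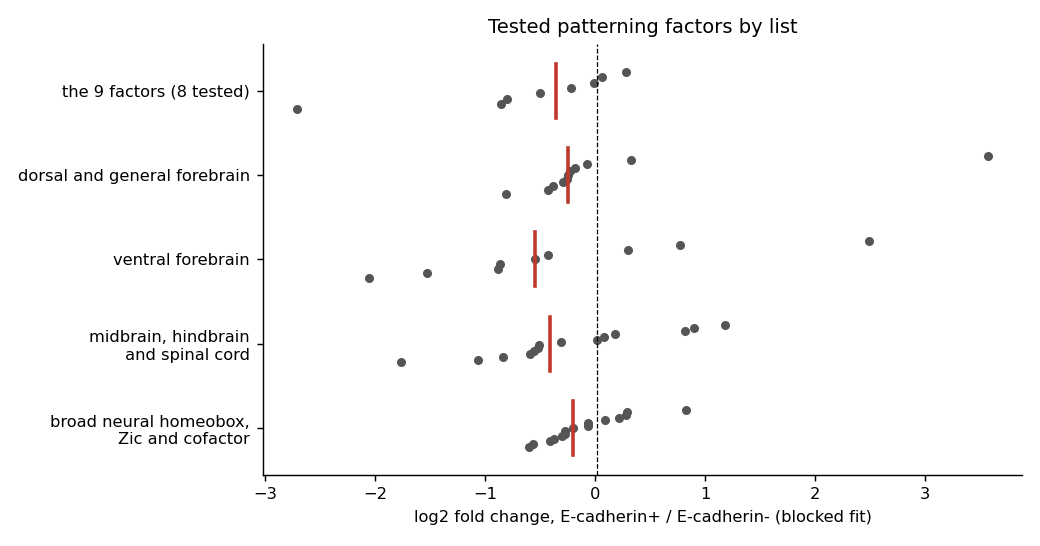
Blocked log2 fold change, Nanog+E-cadherin+ over Nanog+E-cadherin-, of each tested gene (points) in the group of 9 factors and in 4 lists of other patterning factors; red bars are medians and the dashed line is the median of all genes tested. The 5 medians lie between -0.55 and -0.20, and points lie on both sides of 0 in each row.

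Markers of the settings in which the factors are known were also read. In the inhibitory neuron list 4 of 11 genes were tested. Gad2, which makes the transmitter GABA, averaged 1.46 ± 0.726 CPM in Nanog+E-cadherin+ cells and 7.93 ± 5.45 CPM in Nanog+E-cadherin- cells (SD, n = 3 each, blocked adjusted p = 0.356 in edgeR's test). Like Dlx1 it was highest in Nanog+E-cadherin- replicates 2 and 3, the libraries of high chemosensory sums. Among 13 tested neuron genes 10 were fitted lower with group only, and Tubb3, the neuronal beta-tubulin, fell with the block by 1.27 ± 0.17 on the log2 scale (SE), at an adjusted p of 0.0370 in edgeR's test. In the epiblast list, the other setting of Otx2 and Pou3f1, 9 of 12 genes were tested, 5 were fitted higher and 4 lower with group only, and none was called. The median log2 fold change of this list was 0.00071 with group only and 0.39 with the block, against -0.01 and 0.02 over all genes. Foxd3, a forkhead factor, had a blocked log2 fold change of -1.16 ± 1.24 and Nodal, a signalling ligand, one of 0.48 ± 0.30 (SE), while Dnmt3b, a DNA methyltransferase, averaged 33.2 ± 4.57 CPM in Nanog+E-cadherin+ cells against 25.3 ± 1.98 CPM in Nanog+E-cadherin- cells (SD, n = 3 each). Fgf5, a growth factor gene of the epiblast, was below the filter. The neural stem list was fitted lower for 9 of 12 genes with group only, and 0 of 12 were called in either fit. The part of these markers in the values of Otx2 and Dlx1 was not tested.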

How the data were processed

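Groups and replicate numbers of the 6 RNA-seq libraries (3 of Nanog+E-cadherin+ and 3 of Nanog+E-cadherin- cells) follow their titles. Bowtie, RSEM 1.2.4 and the mm9 build are named, per the submitters' processing notes; mapping settings and strand use: not given in the sources used here. Per the file headers, the authors deposited an expected count, a TPM and an FPKM value per gene. Expected counts were rounded to whole numbers for the count tests, the authors' TPM served for levels between genes, and the deposited FPKM was not used. Reads shared by paralogues are split by estimation in RSEM, which leaves genes with shared sequence uncertain.

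Differences were tested with the quasi-likelihood functions of edgeR 4.0.16 (R 4.3.3), with group alone in the design, TMM scaling and p-values adjusted by Benjamini-Hochberg over the 13460 genes that passed filterByExpr (at least 10 counts, 15 in total), at 0.05. SE values are the fitted coefficient over the square root of F. CPM is scaled by TMM, except in sums over lists. Same-numbered libraries deviated from their group means together, at correlations across genes of 0.75, 0.41 and 0.48, above the limit of 0.1, so the numbers were taken as pairs and values of the fit with the replicate block are given throughout. Libraries of unlike number passed that limit narrowly for Nanog+E-cadherin+ replicate 2 with Nanog+E-cadherin- replicate 3 (0.122). So did Nanog+E-cadherin+ replicate 3 with Nanog+E-cadherin- replicate 2 (0.102). The remaining unlike pairs lay between -0.62 and -0.33. The pairing comes from the values, not from the labels. Alternatives used limma 3.58.1, DESeq2 1.42.0, other scalings and left-out libraries. The steps were tested on simulated data.

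The 9 genes, the lists and the tests were chosen with earlier results of these data known. The rule for named genes took the 9, Cdh1 and Nanog, genes of each list called in either fit, up to 4 further tested genes per list of smallest group-only p, and the 2 genes nearest in pattern to each of the 9 at 5 CPM or more, leaving out provisional gene names; the text prints a selection of these. Nes, Vim, Pou3f4, Dlx5, Dlx6 and Fgf5 were named outside that rule. Other lists held markers of oligodendrocytes, microglia, endothelium, and the gate and cassette genes; with the block 0 of 7, 0 of 1, 0 of 4 and 1 of 6 tested genes were called, the last being Cdh1. Map2 was not analysed here, and some genes that the rule names are not reported here.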

Additional observations from a re-analysis of the deposited data

How the results depend on the processing

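Over all genes the count called, 0 with group only, was 41 with the replicate block, 35 with the block and library totals, 304 in DESeq2's blocked Wald test, 264 in blocked limma-voom, 21 in DESeq2's group-only Wald test (which gave no adjusted p for 7834 genes) and 1 with no filter on low counts. With the block and without both libraries of replicate 1, 2 or 3 it was 182, 140 and 449. At an unadjusted p under 0.05 group only gave 359 genes in edgeR and 256 in limma-voom. Of the 9 genes, 0 were called with group only or with the edgeR block. Blocked, 2 were called in DESeq2's Wald test (Otx2, adjusted p = 0.00707, and Dlx1, 0.0340), 1 in limma-voom (Otx2) and 1 without both libraries of replicate 3 (Otx2, 0.0237), at log2 fold changes of -0.84, -2.71, -0.87 and -0.79. Over all 22 settings the adjusted p of Otx2 ran from 0.00707 to 0.99998. That of Dlx1 ran from 0.0340 to 0.99998 over the settings that gave one, which leaves out DESeq2's group-only test. Of the other patterning factors, 2 were called with the block without both libraries of replicate 3 and 0 in every other setting.

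The fitted direction of Otx2, Otx1 and Dlx1 was below 0 in all 22 settings, between -1.16 and -0.49, -1.30 and -0.17, and -3.46 and -0.68. Pou3f1 with the block was above 0 in edgeR (0.0613), with library totals (0.0284), in DESeq2 (0.0780) and without both libraries of replicate 1 (0.24) or 2 (0.34), and below 0 in limma-voom (-0.0222) and without those of replicate 3 (-0.34). Pou3f3 with the block was below 0 in edgeR (-0.00822), with library totals (-0.0410) and without both libraries of replicate 2 or 3 (-0.0220 and -0.14), and above 0 in DESeq2 (0.00554), limma-voom (0.0258) and without those of replicate 1 (0.16). With group only it was below 0 in limma on log2(TPM + 1) and log2(TPM + 0.1) (-0.0935 and -0.11). Nr2e1 was above 0 in group-only limma-voom (0.92) and, blocked, without both libraries of replicate 2 (0.20). With Nanog+E-cadherin- replicates 2 and 3 left out, Nr2e1 was at 3.07 and Pou3f2 at 0.20. Leaving out 1 library at a time with group only gave -0.39 to 0.45 for Pou3f1, -0.46 to 0.69 for Pou3f3, -0.13 to 1.001 for Lhx2 and -1.16 to 0.0122 for Nr2e1. The cause of these changes was not tested. At the counts of Dlx2, and of Dlx1 in Nanog+E-cadherin+ cells, depth limits what could be seen.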
